A study of Mus musculus with 12 samples.

Results

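The comparison described here sets multipotent progenitors (MPPs) of control mice against hematopoietic stem cells (HSCs) of control mice, with 3 arrays of each population, so it rests on 6 of the 12 arrays of the series. The arrays were chosen by their sample labels alone. The control HSCs came from Erg +/+ mice and were sorted from bone marrow enriched for c-Kit as Lineage-, Sca-1+, c-kit+, CD150+ and CD48- cells. The control MPPs came from Erg fl/fl mice that carried no Cre and so kept both floxed alleles. These mice were injected 5 times with pIpC, a synthetic double-stranded RNA and inducer of interferon, and sorting followed 2 weeks after the first dose. No pIpC is named in the labels of the HSC samples. All mice were male C57Bl/6 mice, backcrossed for at least 6 generations per the strain label. The floxed allele carries loxP sites around exon 11 of Erg, which encodes the DNA-binding domain, and its Neo cassette had been removed with Flp. Population, floxed allele and pIpC therefore differ together between the 2 control groups, and their shares in any difference below cannot be told apart.

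The other 6 arrays come from HSCs with 1 Erg allele (Erg +/-, made with a general Cre deleter) and from MPPs without Erg (Erg -/-, made from Erg fl/fl with Mx1-Cre and the same pIpC course), 3 arrays each. They were used for the shared estimate of spread and for the same population difference in Erg-deficient cells. The labels do not state the age of the mice, whether animals were pooled or whether each sample of a group is a mouse of its own. The p-values therefore reflect only how far these samples scatter, and that scatter may be technical. The MPP gate is given as CD150- in the sorting field, with CD48 not mentioned, whereas the source field repeats the CD150+ CD48- gate of the HSCs. The genes of the sorting antigens Slamf1, Cd48, Kit and Ly6a, the targeted gene Erg, and Cd34 and Myc are not analysed here, so neither the gates nor the genotypes were checked on them.

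HSCs sit at the top of blood formation, are mostly out of the cell cycle, and can rebuild the whole blood system after transplantation. MPPs descend from them, divide more often, lose long-term self-renewal and begin to express genes of the lymphoid and myeloid lineages at low levels, a state called lineage priming. Flt3, the receptor for FLT3 ligand, is the surface receptor most used to mark that passage, and the CD150 antigen is lost along it.

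Expression is given as log2 RMA values, where 1 unit is a 2-fold difference, with 1 probe set per gene for 9984 genes. Array medians lay between 5.41 and 5.54, and arrays within a control group correlated at r = 0.9528 to 0.9743 across genes, against 0.9286 to 0.9505 between the groups. The interquartile range was 2.89 to 2.99 in control HSC arrays and 2.53 to 2.84 in control MPP arrays, so the MPP values were packed closer together, and the median difference over all genes was 0.122 log2 units. That median followed brightness: it was 0.22 in the dimmest 2496 genes, 0.18 and -0.06 in the next bands of that size, and 0.05 in the brightest. Along the first principal component of all 12 arrays, which holds 27.6% of the variance, the control HSC arrays lay at -30.2, -22.0 and -24.8 and the control MPP arrays at 7.76, 23.1 and 26.0. Control MPP replicate 1 therefore stood nearer to the HSCs than replicates 2 and 3 did.

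The rows of the value table limit what can be counted. In the comparison of Erg-deficient MPPs with Erg-deficient HSCs, 9972 of the 9984 genes had an absolute moderated t of at most 2.39 and the other 12 had 15.6 or more, with no gene between. In the control comparison 1719 genes lie in that range. Genes with intermediate differences between the Erg-deficient populations are thus not analysed here, and why these rows are the ones held cannot be told from the files. Every count, share and median below describes the rows held and not the whole transcriptome. The coverage of known gene groups was uneven: 15 of 83 listed HSC-associated genes and 25 of 111 listed mitosis genes were measured, against 94 of 133 ribosome biogenesis genes.

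**Figure D1:**
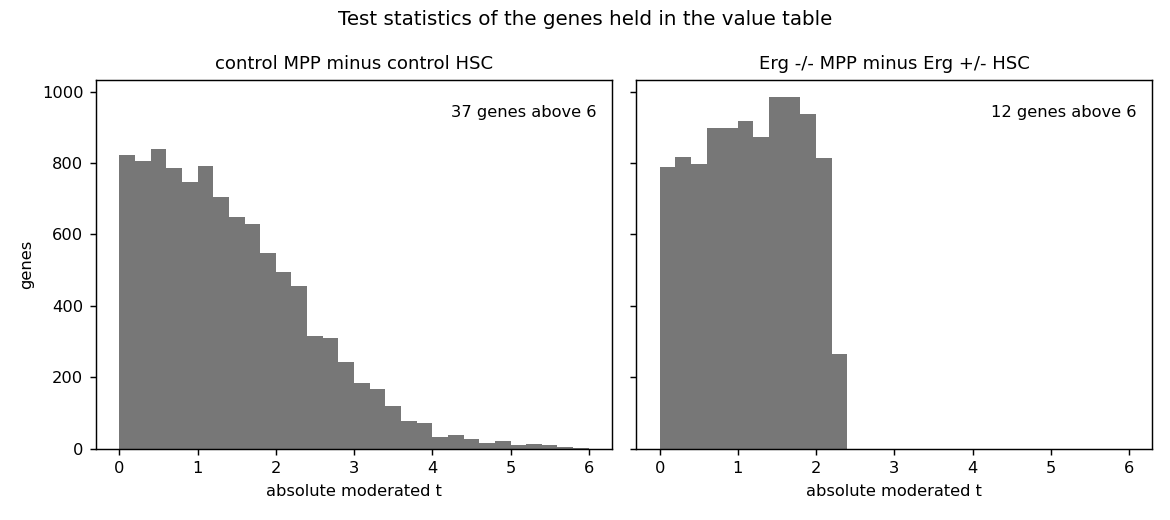
Histograms of the absolute moderated t of 9984 genes for control MPPs minus control HSCs (left) and Erg -/- MPPs minus Erg +/- HSCs (right), with the number of genes on the vertical axis. The left distribution has a continuous tail, whereas the right one stops at 2.39 and resumes at 15.6, beyond the plotted range.

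The control populations differed at 128 of the 9984 genes at an adjusted p under 0.05 (limma with Benjamini-Hochberg adjustment), which is 1.28% of the genes tested. Of these, 65 were higher in MPPs (0.651%) and 63 lower (0.631%), and 2226 genes had an unadjusted p under 0.05. Differences were positive for 62.4% of all genes, called or not. The arrays of the 2 groups did not overlap for 27.0% of all genes, 18.5% with MPPs higher and 8.54% with MPPs lower. The smallest difference among the called genes was 0.72 log2 units, and 19 called genes differed by more than 2 units. A total of 14 called genes are clones, predicted genes, small RNAs or sensory receptors, which are counted here and not described. The calls leaned on the control MPP arrays: without MPP replicate 2 there were 47 and without replicate 3 there were 48, against 150 without replicate 1. Without the array of lowest weight in each group, HSC replicate 1 and MPP replicate 1, 61 genes were called, 36 of them among the 128. With each of the 6 control arrays left out in turn, 31 of the 128 genes passed every time, 12 higher and 19 lower in MPPs.

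**Figure D2:**
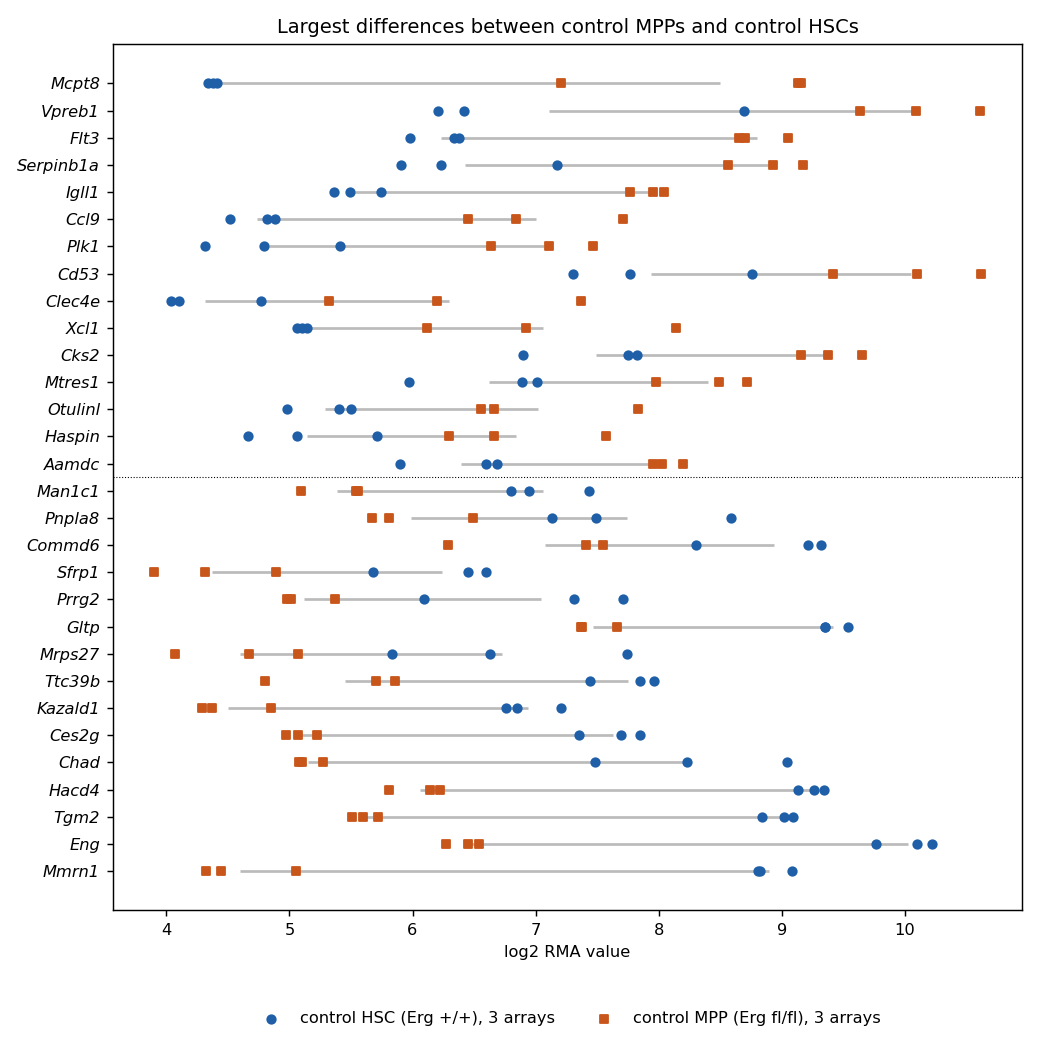
Log2 RMA values on each control array for the 15 largest differences in each direction among called genes with non-overlapping groups, leaving out sensory receptors, small RNAs, clones and predicted genes, higher in MPPs above the dotted line and lower below it. Circles are the 3 control HSC arrays, squares the 3 control MPP arrays, and the grey line joins the group means; Mmrn1 and Mcpt8 span the widest gaps.

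Genes associated with HSCs had the lowest median of the 30 lists, which were chosen with earlier results of these data known. The low median and the counts may therefore partly reflect that choice. Of 15 measured, 5 (33.3%, beside 1.28% of all genes) were called lower and 0 higher. All 5 are among the 12 genes held with an absolute t of 15.6 or more in the Erg-deficient comparison. The share, the median and the steadiness of the count can therefore also reflect which rows are held. In all, 14 differences were negative, and the median was -0.74 log2 units beside 0.12 for all genes. The mean level of the 15 genes ran from 7.72 to 7.92 in the HSC arrays and from 6.59 to 6.61 in the MPP arrays. The count of 5 became 5 or 6 when any one control array was left out and was 5 without the lowest-weight arrays.

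Mmrn1, which encodes the platelet and endothelial protein multimerin 1, read 8.81, 8.82 and 9.08 in control HSCs and 4.32, 4.44 and 5.05 in control MPPs. Its difference of -4.30 log2 units (SE 0.203, adjusted p = 2.13e-07 by limma) was the largest of all named genes, a 19.8-fold lower value. Eng encodes endoglin, a co-receptor for TGF-beta and BMP ligands found on long-term HSCs and endothelium. Its values were 9.77, 10.22 and 10.10 in HSCs and 6.54, 6.45 and 6.27 in MPPs, 12.2-fold lower (-3.61 log2 units, SE 0.166, adjusted p = 2.13e-07). Tgm2, which encodes the protein-crosslinking enzyme transglutaminase 2, read 9.09, 8.84 and 9.02 in HSCs and 5.51, 5.60 and 5.72 in MPPs, 10.4-fold lower (-3.37 log2 units, SE 0.168, adjusted p = 2.81e-07). For all 3 genes the populations were separated by more than 3 log2 units, against a spread within groups of well under 1 unit.

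Nupr1, a stress-responsive transcriptional regulator, was also lower, at 8.25, 8.69 and 8.58 in HSCs and 6.75, 6.89 and 6.92 in MPPs (-1.66 log2 units, SE 0.177, adjusted p = 0.000597). Ifitm1, a member of the interferon-induced transmembrane family, was abundant in both populations and lower in MPPs, with 12.27, 12.06 and 12.11 against 11.17, 11.04 and 10.98 (-1.08 log2 units, SE 0.155, adjusted p = 0.00558). Its second probe set differed by -1.36 log2 units. Its main probe set missed the threshold when arrays were scaled to a common interquartile range. The members of the list that did not pass included the scramblase family gene Plscr2 at -1.95 (adjusted p = 0.0749), the homeobox gene Hoxa9 at -0.80 (0.0993) and the helix-loop-helix factor gene Tcf15 at -0.74 (0.149). Itga2b, which encodes the integrin CD41, stood at -0.02, and the tetraspanin gene Cd63 was the single member with a positive difference, 0.54 (adjusted p = 0.128).

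Several genes outside the lists followed the same pattern. Hacd4, which encodes an enzyme of very long chain fatty acid elongation, read 9.26, 9.34 and 9.13 in HSCs and 6.14, 6.22 and 5.81 in MPPs (-3.19 log2 units, SE 0.204, adjusted p = 4.23e-06). Ces2g, a carboxylesterase gene, read 7.85, 7.69 and 7.35 against 5.22, 5.07 and 4.97 (-2.54 log2 units, adjusted p = 9.44e-06). Gltp, which encodes a glycolipid transfer protein, read 9.35, 9.35 and 9.54 against 7.66, 7.37 and 7.38 (-1.95 log2 units, adjusted p = 7.62e-05). The groups of these 3 genes did not overlap, and each was called with any single control array left out.

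Chad, which encodes the matrix protein chondroadherin, was lower by a similar amount but spread more widely among HSC arrays. Its values there were 9.04, 7.48 and 8.23, against 5.08, 5.10 and 5.27 in MPPs (-3.10 log2 units, SE 0.461, adjusted p = 0.00755), and it was not called without the lowest-weight arrays. Kazald1, which encodes a secreted protein with a Kazal-type domain, differed by -2.44 (adjusted p = 0.00527) and Ttc39b by -2.30 (adjusted p = 0.00109). Ecscr, which encodes an endothelial surface receptor that regulates chemotaxis, read 7.73, 7.63 and 7.67 in HSCs and 5.89, 6.14 and 6.63 in MPPs, -1.46 log2 units (adjusted p = 0.00242). It was picked out after its values were seen.

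The remaining large negative differences rested on fewer arrays. Mrps27, a mitochondrial ribosomal protein gene, stood at -2.13 log2 units (adjusted p = 0.0282), Prrg2 at -1.92 (0.0249), the secreted Wnt antagonist gene Sfrp1 at -1.88 (0.0362), Commd6 at -1.86 (0.0498), the phospholipase gene Pnpla8 at -1.75 (0.0414) and the mannosidase gene Man1c1 at -1.66 (0.0398). Each was called with at most 3 of the 6 control arrays left out in turn, and Man1c1 with none. Without 1 array their adjusted p reached 0.112 for Mrps27, 0.102 for Prrg2, 0.113 for Sfrp1, 0.144 for Commd6, 0.131 for Pnpla8 and 0.127 for Man1c1.

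Of 23 measured genes of the lymphoid-primed progenitor, 4 (17.4%, beside 1.28% of all genes) were called higher in MPPs and 0 lower, and 19 did not pass. Of the 23 differences 20 were positive, beside 62.4% of all genes, with a median of 0.76 log2 units. Their mean level was 6.15 to 6.34 in HSC arrays and 6.88 to 7.23 in MPP arrays. The called count fell to between 1 and 3 with any one control array left out and to 1 without the lowest-weight arrays; it was 2 after median centring and 1 over all probe sets or with only the 6 control arrays in the fit. The median was 0.66 to 0.70 under the 3 other scalings.

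Flt3 was the member called under every setting. It read 6.38, 5.98 and 6.34 in HSCs and 9.05, 8.70 and 8.65 in MPPs, a 5.94-fold higher value (2.57 log2 units, SE 0.250, adjusted p = 0.000242). The 2 populations were thus more than 2 log2 units apart on a gene whose protein the sort did not use. Cd53, which encodes a tetraspanin of leukocytes, read 7.30, 8.76 and 7.77 in HSCs and 10.62, 10.10 and 9.42 in MPPs (2.10 log2 units, SE 0.424, adjusted p = 0.0344). Irf8, a transcription factor of dendritic cell, monocyte and B cell development, read 5.18, 5.72 and 5.96 against 6.81, 6.48 and 6.70 (1.05 log2 units, adjusted p = 0.0364). Lef1, a Wnt-responsive transcription factor of early lymphocytes, read 4.59, 5.16 and 5.03 against 5.65, 5.98 and 5.85 (0.90 log2 units, adjusted p = 0.0369).

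For all 3 of these the groups did not overlap, but Cd53 missed the threshold without 4 of the 6 control arrays (adjusted p up to 0.108), Irf8 without 5 (up to 0.113) and Lef1 without 4 (up to 0.124). Members that did not pass included the monocyte and B cell gene Ly86 at 1.39 (adjusted p = 0.105), the GTPase gene Rhoh at 1.00 (0.0589) and the B cell adaptor gene Blnk at 0.85 (0.0983). Notch1 stood at -0.05 and the pan-leukocyte gene Ptprc at 0.07. Ly9, a SLAM-family receptor gene that is on none of the lists, was picked out after its values were seen. It read 6.61, 6.23 and 6.69 in HSCs and 7.84, 7.64 and 7.68 in MPPs (1.21 log2 units, adjusted p = 0.00682), and it was called with any one control array left out.

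Of 12 measured B cell genes 3, all of the early B lineage, were called higher in MPPs and 0 lower, while 4 of the 12 differences were negative. The median was 0.29 log2 units, and 0.16 after repeated quantile normalisation, 0.19 after median centring and 0.34 with a common interquartile range. Vpreb1 and Igll1 encode the 2 chains of the surrogate light chain, the stand-in for an antibody light chain in B cell precursors. Igll1 read 5.74, 5.49 and 5.36 in HSCs and 7.95, 7.77 and 8.04 in MPPs, a 5.25-fold difference with no overlap (2.39 log2 units, SE 0.173, adjusted p = 1.13e-05). Vpreb1 was higher by 3.00 log2 units (SE 0.559, adjusted p = 0.0259), but HSC replicate 1 stood apart from the other HSC arrays: the HSC values were 8.69, 6.21 and 6.42, and the MPP values 9.64, 10.09 and 10.61. Vpreb1 missed the threshold without 4 of the 6 control arrays, with an adjusted p of up to 0.106.

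Ebf1, the transcription factor that sets up the B cell programme, was dim in HSCs at 3.98, 4.30 and 4.27 and read 5.48, 5.43 and 6.11 in MPPs (1.49 log2 units, SE 0.238, adjusted p = 0.0114). It passed with any one control array left out and missed the threshold without the lowest-weight arrays. The next members stood at 1.22 for the B cell receptor component gene Cd79a (adjusted p = 0.0941), 0.63 for Cecr2 and 0.34 for Pax5, the factor that commits cells to the B lineage. The mature B cell receptor genes Fcer2a and Cr2 had negative differences that did not pass, -0.69 and -0.16. The mean level over the 12 genes was 5.38 to 5.72 in HSC arrays and 6.06 to 6.31 in MPP arrays. That mean includes the 3 called genes, which have the largest differences of the list, so it does not describe the other members. Whether a small share of committed B cell precursors in the MPP sort had a part in these differences was not tested.

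Of 26 measured granulocyte-macrophage genes 3 (11.5%, beside 1.28% of all genes) were called higher in MPPs and 0 lower, and 23 did not pass. The list's median was 0.27 log2 units, or 0.17 to 0.22 under the 3 other scalings. Serpinb1a encodes an inhibitor of neutrophil serine proteases. It read 6.23, 5.91 and 7.17 in HSCs and 9.17, 8.93 and 8.56 in MPPs, a 5.48-fold difference (2.46 log2 units, SE 0.384, adjusted p = 0.0106), and it was called with any one control array left out but not without the lowest-weight arrays. Ccl9, a chemokine gene of myeloid cells, read 4.52, 4.82 and 4.88 against 7.71, 6.84 and 6.45 (2.26 log2 units, SE 0.427, adjusted p = 0.0274), and Irf8 is the third called member. Cebpa, the transcription factor that starts the myeloid programme, read 5.40, 5.61 and 5.81 against 7.12, 7.19 and 6.84 and just missed the threshold (1.45 log2 units, adjusted p = 0.0536). The granule genes Nkg7 at 1.78 (adjusted p = 0.0787) and Cst7 at 1.43 (0.105) also had non-overlapping groups without passing.

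Ccl9 missed the threshold without 4 of the 6 control arrays (adjusted p up to 0.0770). The called count of this list ranged from 1 to 3 with 1 control array left out and was 0 without the lowest-weight arrays. At the other end of the list were the neutrophil collagenase gene Mmp8 at -0.87 and the transcriptional repressor gene Gfi1 at -0.33, neither of which passed. Clec4e, a C-type lectin receptor gene of myeloid cells that is on no list, was called higher at 1.99 log2 units (adjusted p = 0.0332). Its MPP values spread from 5.32 to 7.37, above HSC values of 4.10, 4.77 and 4.04, and it missed the threshold without 3 of the 6 control arrays (adjusted p up to 0.0912).

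The largest positive difference belonged to Mcpt8, a mast cell protease gene that marks basophils. It was dim and even in HSCs, at 4.41, 4.38 and 4.34, and high but uneven in MPPs, at 9.16, 7.21 and 9.13. The difference was 4.13 log2 units, or 17.5-fold (SE 0.403, adjusted p = 0.000242), and held with any one control array left out, between 3.80 and 4.77. None of the other 10 measured mast cell and basophil genes passed. Among them the IgE receptor chain gene Ms4a2 stood at 0.94 (HSCs 3.44, 3.79 and 3.61, MPPs 5.45, 4.20 and 4.02, adjusted p = 0.127), the histidine decarboxylase gene Hdc at 0.45 and the basophil receptor gene Cd200r3 at 0.24. The list's mean level was 4.21 to 4.48 in HSC arrays and 4.88 to 4.99 in MPP arrays. Its median of 0.35 became -0.01 when arrays were scaled to a common interquartile range. Mcpt8 thus differed by over 3 log2 units more than any other measured marker of that lineage, and whether basophil precursors within the MPP sort had a part was not tested.

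Further genes on no list stood among the 15 largest increases of named genes. Aamdc, which encodes a protein linked to adipogenesis, read 6.69, 5.90 and 6.60 in HSCs and 8.20, 8.03 and 7.95 in MPPs (1.67 log2 units, adjusted p = 0.00378) and was called under every setting. Mtres1, which encodes a factor of mitochondrial transcription, read 5.97, 7.01 and 6.89 against 8.49, 7.98 and 8.72 (1.77 log2 units, adjusted p = 0.0203). Otulinl read 5.40, 4.98 and 5.50 against 7.83, 6.56 and 6.66 (1.72 log2 units, adjusted p = 0.0498). Mtres1 missed the threshold without MPP replicate 3 (adjusted p = 0.0883) and Otulinl without any one control array (up to 0.106).

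Markers of T and NK cells showed a median of 0.61 log2 units over 11 genes, with 1 (9.09%, beside 1.28% of all genes) called higher and 0 lower. That member was Cd7, which encodes a surface protein of early lymphoid cells, at 5.11, 5.22 and 5.27 in HSCs and 5.86, 6.28 and 6.07 in MPPs (0.87 log2 units, adjusted p = 0.0248), lost without 3 of the 6 control arrays (up to 0.0867). The T cell receptor component gene Cd3d stayed dim on all 6 arrays, between 3.58 and 3.94, with a difference of 0.03. Xcl1, a chemokine gene of lymphocytes on no list, was called at 1.95 log2 units (adjusted p = 0.0366), with HSC values of 5.10, 5.14 and 5.06 and MPP values of 6.12, 8.14 and 6.92. It missed the threshold without 5 of the 6 control arrays (adjusted p up to 0.106).

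Markers of the remaining blood lineages gave few calls. Of 27 measured erythroid genes 0 were called in either direction. An unadjusted p under 0.05 in limma was found for 1, beside 2226 of all 9984 genes. The erythroid differences were positive for 20, beside 62.4% of all genes, and had a median of 0.12, equal to that of all genes. The smallest p belonged to the Rh antigen gene Rhd at 0.75 (adjusted p = 0.128). Among 13 megakaryocyte and platelet genes, Mmrn1 alone was called, and the others ran from -0.96 for the ATP receptor gene P2rx1 to 0.61 for Ltbp1. Among 12 dendritic cell and macrophage genes 0 were called, with 4 at an unadjusted p under 0.05. Their median of 0.06 turned to -0.03 and -0.04 under repeated quantile normalisation and median centring, so it has no settled sign.

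Most measured cell cycle genes had positive differences, as did 62.4% of all genes, and few of them passed. Of 25 measured mitosis genes 3 were called higher and 0 lower, beside 128 of all 9984 genes (1.28%) called in either direction. In the mitosis list 20 differences were positive, and the median was 0.43 log2 units. Of 32 measured DNA replication genes 2 (6.25%, beside 1.28% of all genes) were called higher and 0 lower. The replication list had 26 positive differences and a median of 0.32. The mean level of the mitosis genes was 6.48 to 6.83 in HSC arrays and 6.94 to 7.59 in MPP arrays, and that of the replication genes 6.99 to 7.14 and 7.32 to 7.66. Both medians kept their sign under every scaling. The counts were less firm: with 1 control array left out they ranged from 0 to 4 for mitosis and from 0 to 1 for replication, and without the lowest-weight arrays they were 1 and 0.

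Plk1, the kinase that drives entry into and passage through mitosis, read 5.41, 4.79 and 4.31 in HSCs and 7.11, 6.64 and 7.47 in MPPs (2.24 log2 units, SE 0.467, adjusted p = 0.0375). Haspin, the kinase that marks histone H3 at centromeres, read 5.71, 4.66 and 5.06 against 7.57, 6.30 and 6.66 (1.70 log2 units, adjusted p = 0.0498). Hmgb2, a chromatin protein abundant in dividing cells, read 8.34, 8.26 and 9.11 against 10.11, 9.81 and 10 (1.40 log2 units, adjusted p = 0.0245). In all 3 the lowest MPP array lay above the highest HSC array. A second, dimmer probe set of Hmgb2 differed by 0.69 with an unadjusted p of 0.462 in limma.

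In the replication list, Gins2, a subunit of the helicase complex that unwinds DNA at forks, read 7.23, 7.35 and 6.78 in HSCs and 8.42, 8.52 and 8.81 in MPPs (1.47 log2 units, adjusted p = 0.0375). Ung, which encodes the uracil glycosylase that removes misincorporated uracil, read 4.98, 5.32 and 4.95 against 5.64, 6.00 and 6.10 (0.83 log2 units, adjusted p = 0.0379). Gins2 missed the threshold with each control array left out in turn (adjusted p up to 0.120), Plk1, Haspin and Hmgb2 without 5 of 6 (up to 0.122, 0.113 and 0.0883) and Ung without 4 (up to 0.122).

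Cks2 and Dtl belong to the cell cycle but to neither list, and Dtl was picked out after its values were seen. Cks2, a small subunit of cyclin-dependent kinases, was the steadiest cell cycle gene, at 7.75, 6.90 and 7.82 in HSCs and 9.65, 9.38 and 9.16 in MPPs. It differed by 1.91 log2 units, or 3.75-fold (SE 0.243, adjusted p = 0.00243), was called under every setting, and its second probe set differed by the same 1.91. Dtl, the substrate receptor of a ubiquitin ligase that clears replication licensing factors, read 6.38, 6.64 and 6.11 against 7.91, 7.35 and 7.65 (1.26 log2 units, adjusted p = 0.0307).

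**Figure D3:**
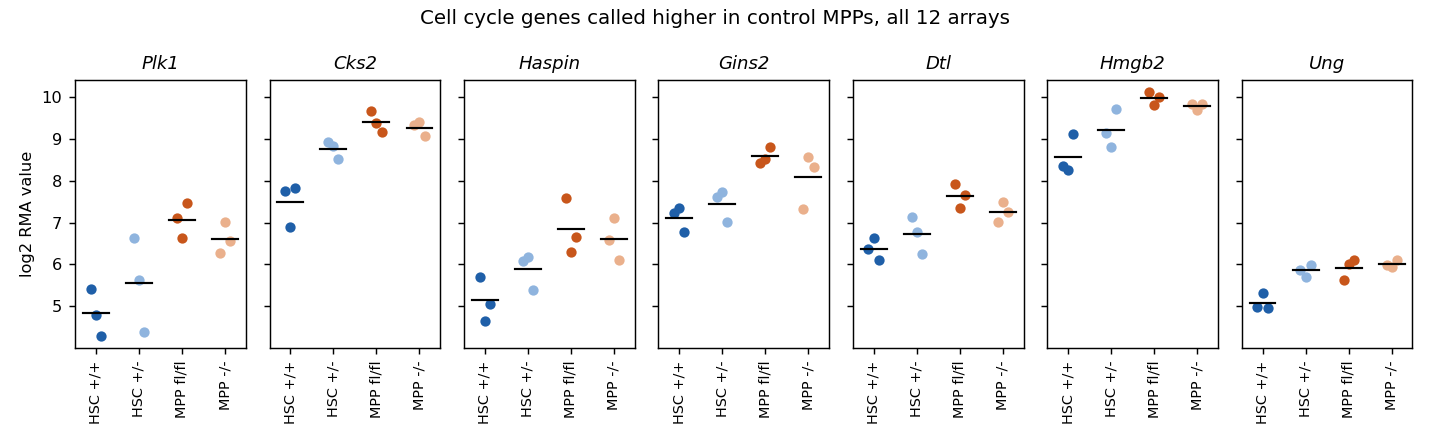
Log2 RMA values of 7 cell cycle genes called higher in control MPPs, on all 12 arrays, with a bar at the mean of each group of 3. In every panel the control MPP points (fl/fl) lie above the control HSC points (+/+). The Erg +/- HSC and Erg -/- MPP points are shown beside them. Their means are no part of the control difference, but those arrays entered the estimate of spread and the choice of probe set.

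Promoters of late cell cycle genes are known to carry CCAAT boxes, which bind the factor NF-Y, and CHR elements, bound by repressor complexes in resting cells, while E2F sites are known from genes of DNA replication. Of the 7 called cell cycle genes above, 6 have a promoter in the RefSeq table used here (assembly GRCm38.p6). The 100 bases before the start site are shown for 4 of them, those with a CCAAT box, each 5′ to 3′ on the gene's strand, with matches to the 3 motifs in capitals. They are Plk1 at chr7:122159335-122159434 on the plus strand, Cks2 at chr13:51645132-51645231 on the plus strand, Dtl at chr1:191575545-191575644 on the minus strand and Hmgb2 at chr8:57511743-57511842 on the plus strand.
Plk1: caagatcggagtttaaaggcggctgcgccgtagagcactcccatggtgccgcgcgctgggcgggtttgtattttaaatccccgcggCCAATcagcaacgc
Cks2: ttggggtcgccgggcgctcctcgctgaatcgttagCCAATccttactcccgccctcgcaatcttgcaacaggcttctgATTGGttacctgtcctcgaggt
Dtl: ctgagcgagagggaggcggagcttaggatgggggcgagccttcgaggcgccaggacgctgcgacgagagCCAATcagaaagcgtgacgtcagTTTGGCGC
Hmgb2: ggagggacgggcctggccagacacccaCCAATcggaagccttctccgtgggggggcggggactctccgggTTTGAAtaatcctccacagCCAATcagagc

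A CCAAT box (CCAAT, or ATTGG for the other strand) was sought in the 250 bases before each start site, and 4 of the 6 promoters (66.7%) held one. The share was 35.0% of 9504 promoters of the measured genes and 33.8% of 32851 promoters in the whole table. Among all called genes it was 32.3% for those higher and 32.8% for those lower in MPPs, so the called genes as a whole were no richer in this motif than the measured genes. The CHR element (TTTGAA) was found in the Hmgb2 promoter alone, 1 of 6, against 12.6% of promoters of measured genes. An E2F site (TTTCCCGC, TTTGGCGC, TTTCGCGC or TTTGCCGC) was found in Dtl alone, against 2.62%. These matches describe letters in a window, not bound sites.

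Of the other mitosis genes, the chromosomal passenger gene Cdca8 came closest to a call at 2.08 (adjusted p = 0.0574), with HSC values of 7.24, 5.19 and 4.83 and MPP values of 8.25, 7.66 and 7.58. The centromere gene Cenpp followed at 1.30 (adjusted p = 0.0737). The ubiquitin-conjugating gene Ube2s went the other way at -0.81 (adjusted p = 0.217). Top2a, the topoisomerase of dividing cells, overlapped between groups, with 6.20, 4.74 and 3.95 in HSCs and 5.08, 5.52 and 6.05 in MPPs (0.59, adjusted p = 0.586), and the helicase subunit gene Mcm2 stood at 0.36 (adjusted p = 0.531). In the HSC arrays Cdca8, Cenpp, Plk1, Top2a and Haspin were all highest in replicate 1. Hmgb2 and Cks2 were highest in replicate 3, and Gins2, Dtl and Ung in replicate 2.

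The list of cell cycle inhibitors, D cyclins and quiescence genes gave 0 calls among 24 measured. Of these, 7 had an unadjusted p under 0.05 in limma, beside 2226 of all 9984 genes, and the list's median was -0.12 log2 units. No D cyclin gene was among those measured, and Cdkn2b was the only measured gene of the Cdkn inhibitors. Meg3, an imprinted long non-coding RNA gene expressed in long-term HSCs, had the largest difference at -2.09 (adjusted p = 0.0945). Its HSC values of 6.71, 7.65 and 9.56 were spread over almost 3 units, all above MPP values of 5.65, 5.85 and 6.15. It was called when HSC replicate 1 was left out. Ccne2, which encodes the S-phase cyclin E2, stood at 0.95 (adjusted p = 0.100) and Cdk4 at -0.23 (0.483).

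Genes of growth and metabolism gave few calls. Of 94 measured ribosome biogenesis genes 2 (2.13%, beside 1.28% of all genes) were called higher and 0 lower. The median was 0.18 log2 units, and 63 differences were positive, beside 62.4% of all genes. With a common interquartile range 10 were called higher and 1 lower (median 0.27), and with median centring 1 was called (median 0.09). Mphosph10, a component of the complex that first cuts ribosomal RNA, read 7.06, 6.80 and 6.77 in HSCs and 8.40, 7.70 and 7.93 in MPPs (1.13 log2 units, adjusted p = 0.0245). Dkc1, the enzyme that modifies ribosomal RNA and holds the telomerase RNA, read 8.18, 8.28 and 7.98 against 9.39, 8.76 and 9.32 (1.01 log2 units, adjusted p = 0.0362). Without 3 and 5 of the 6 control arrays respectively these calls were lost (adjusted p up to 0.0672 and 0.116).

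Cytosolic ribosomal proteins, translation factors and oxidative phosphorylation genes had medians of 0.10, 0.10 and 0.11, with 0 called of 42, 37 and 53. Of these, 7, 8 and 13 had an unadjusted p under 0.05 in limma, as did 2226 of all 9984 genes. The smallest p in each belonged to Rpl36a at 0.93 (adjusted p = 0.0505), the peptide release factor gene Etf1 (0.0637) and the complex I subunit gene Ndufa2 at 0.95 (0.0830). These bright genes depended on the scaling: with arrays set to a common interquartile range the medians were 0.57, 0.32 and 0.37 and 9, 4 and 12 members were called higher, whereas with median centring alone all 3 medians were 0.01. No direction is given for them.

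The mitochondrial list gave a median of -0.01 over 55 genes with Mrps27 as its single call. Glycolysis and hypoxia genes had a median of -0.22 over 19 genes, negative under every scaling. The mitophagy receptor gene Bnip3l was called lower, with 8.65, 8.64 and 8.85 in HSCs and 7.85, 7.32 and 7.45 in MPPs (-1.17 log2 units, adjusted p = 0.0340); it missed the threshold without 5 of the 6 control arrays (up to 0.118). Among nucleotide synthesis genes Prps2, which makes the ribose phosphate precursor of nucleotides, was called higher, with 7.04, 6.99 and 7.32 against 8.73, 8.35 and 8.52 (1.42 log2 units, adjusted p = 0.0320), and it too missed the threshold without 5 of 6 (up to 0.106). Cholesterol synthesis genes gave 0 calls of 12, with 2 at an unadjusted p under 0.05 in limma. Lysosome and efflux genes gave 0 of 21, with 7 at such a p, beside 2226 of all 9984 genes.

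**Figure D4:**
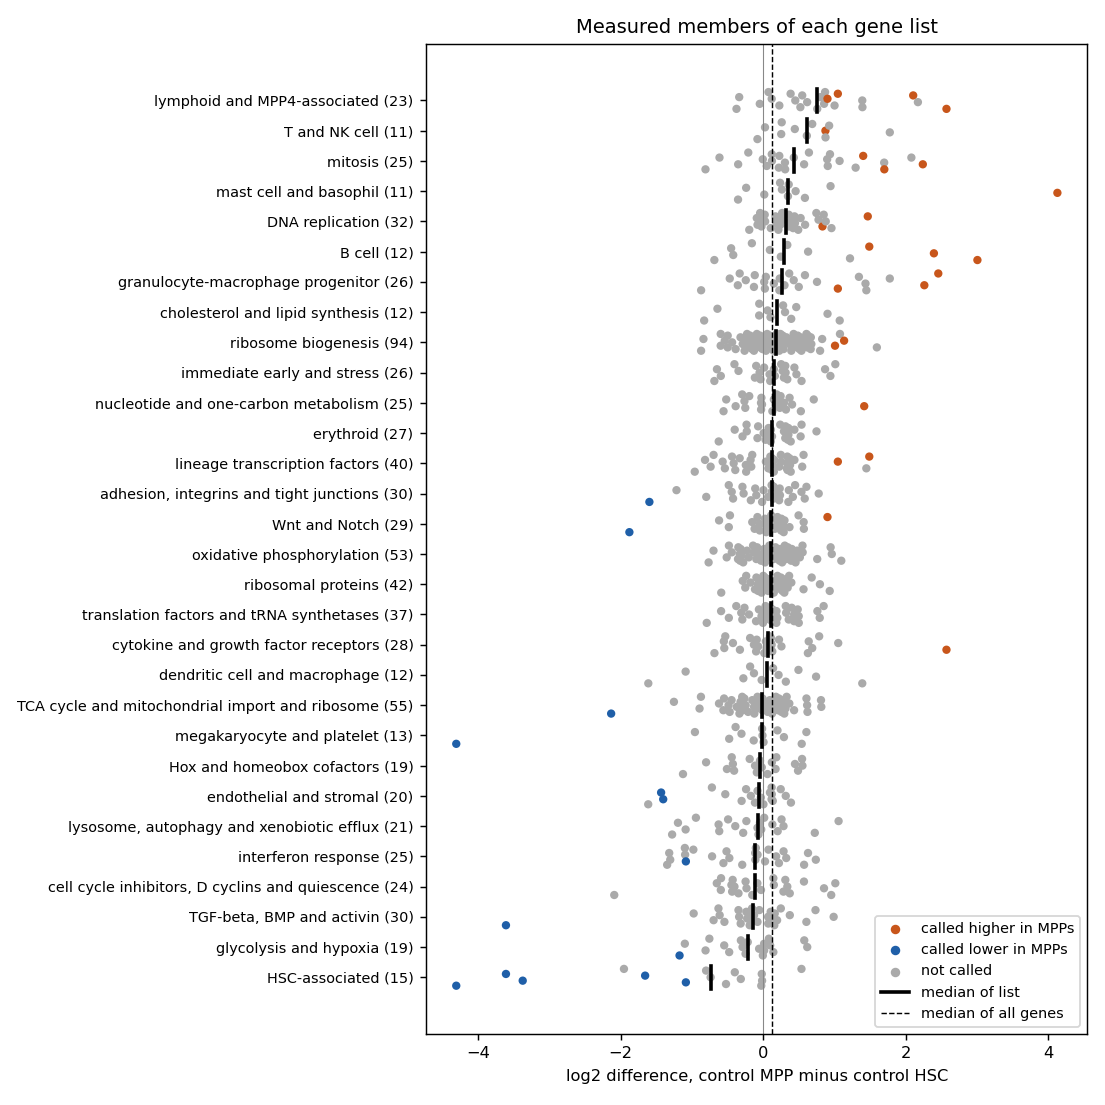
Each point is a measured gene of the list named on the left (number measured in parentheses), placed by its log2 difference, control MPPs minus control HSCs; coloured points passed an adjusted p under 0.05. The black bar is the list median and the dashed line the median of all genes, 0.12. HSC-associated genes lie lowest at -0.74 and lymphoid genes highest at 0.76. The lists were chosen with earlier results of these data known.

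The interferon response genes matter here because the MPP donors alone are labelled as given pIpC. Of 25 measured, 0 were called higher and 1, Ifitm1, lower, and the median was -0.11 log2 units, or -0.21 to -0.33 under the 3 other scalings. The mean level was 7.10 to 7.32 in HSC arrays and 6.83 to 6.93 in MPP arrays. The groups did not overlap for 5 members with MPPs lower and for 5 with MPPs higher, 20.0% each, beside 8.54% and 18.5% of all genes. Those lower were Ifitm1 and, without passing, the antiviral genes Ifit3 at -1.35 (adjusted p = 0.0729), Oas1a at -1.30 (0.121) and Rsad2 at -1.10 (0.163) and the transcription factor gene Irf1 at -0.72 (0.170). Those higher, none of which passed, were Oasl1 at 0.74 (adjusted p = 0.0785), Slfn1 at 0.57 (0.126), the immunoproteasome gene Psmb8 at 0.32 (0.335), B2m at 0.29 (0.262) and Trim30a at 0.22 (0.483). Mx1, whose promoter drives the Cre in this strategy, read 4.71, 4.03 and 5.41 in HSCs and 3.93, 4.31 and 4.24 in MPPs (-0.56, adjusted p = 0.300), so the groups overlapped. HSC replicate 3 had the highest value of the 6 arrays for Ifit3, Mx1 and the chemokine gene Cxcl9, which read 8.85 there and 5.32 to 6.80 on the other HSC arrays.

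Immediate early and stress genes, which respond to handling, gave 0 calls of 26 and a median of 0.16. Of these, 6 had an unadjusted p under 0.05 in limma, beside 2226 of all 9984 genes. The heat shock gene Hspa8 at 0.44 (adjusted p = 0.109) and the stress factor gene Atf4 at -0.69 (0.116) had the smallest p. Dnajb11, a co-chaperone gene of the endoplasmic reticulum picked out after its values were seen, read 7.10, 7.34 and 7.29 in HSCs and 8.69, 8.30 and 8.52 in MPPs (1.26 log2 units, adjusted p = 0.00794), and was called with any one control array left out.

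Endothelial and stromal markers checked for other marrow cells in the sorts. Of 20 measured, 2 were called lower in MPPs and 0 higher, and the median was -0.06. Their mean level was 5.70 to 5.80 in HSC arrays and 5.46 to 5.55 in MPP arrays. Sox18, a transcription factor of endothelial cells, read 6.55, 6.63 and 7.50 in HSCs and 5.48, 5.44 and 5.46 in MPPs (-1.43 log2 units, SE 0.230, adjusted p = 0.0114), and it missed the threshold without MPP replicate 2 (adjusted p = 0.0510). Sparc, a collagen-binding matrix protein gene, read 7.97, 7.40 and 7.40 against 6.54, 5.91 and 6.10 (-1.40 log2 units, adjusted p = 0.0351). It missed the threshold without 5 of the 6 control arrays (up to 0.121).

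The niche chemokine gene Cxcl12 was uneven among HSCs, at 9.09, 6.08 and 7.03, and overlapped with MPPs at 5.83, 5.41 and 6.12 (-1.61, adjusted p = 0.132). The endothelial adhesion gene Pecam1 overlapped too, at 7.65 to 7.96 and 7.36 to 8.22, and the fibroblast gene Dcn stood at 0.39 and Fn1 at 0.32. The part of stromal or endothelial RNA in the HSC differences was not tested. Mmrn1, Eng and Ecscr are also expressed by endothelium, and fewer cells of a type and less RNA per cell cannot be told apart in such bulk samples.

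Signalling genes gave scattered calls. In the TGF-beta, BMP and activin list Eng was the single call of 30, and the rest ran from -0.98 for the ligand gene Bmp4 (adjusted p = 0.208) to 0.99 for the signal transducer gene Smad2 (0.0630), with a median of -0.14. In the Wnt and Notch list of 29, Lef1 was called higher and Sfrp1 lower. The latter read 5.68, 6.60 and 6.45 in HSCs and 3.90, 4.31 and 4.89 in MPPs. Among 28 cytokine and growth factor receptor genes Flt3 was the single call, and the interleukin-1 receptor gene Il1r1 came next in size at 1.05 (adjusted p = 0.161). Among 30 adhesion genes Efna1, an ephrin ligand gene, was called lower, with 5.93, 7.36 and 6.28 in HSCs and 4.75, 4.90 and 5.13 in MPPs (-1.60 log2 units, adjusted p = 0.0277), a call lost without any one of the MPP arrays (up to 0.0852).

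Homeobox genes gave 0 calls of 19 and a median of -0.04. Of these, 8 had an unadjusted p under 0.05 in limma, beside 2226 of all 9984 genes. Within the list, Hoxa9 at -0.80 and Hoxa2 at -1.12 had the smallest p. Among 40 lineage transcription factor genes the 2 calls were Ebf1 and Irf8, both higher in MPPs. The erythroid factor gene Gata1 stood at 0.39 (adjusted p = 0.283) and the retinoic acid receptor gene Rara at -0.96 (0.127).

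In the other 6 arrays, whose means are no part of the control difference but which share its estimate of spread, Erg -/- MPPs differed from Erg +/- HSCs at 12 genes, 0.12% of those tested, with 381 at an unadjusted p under 0.05 in limma. All 12 are among the 128 and have the same direction: Mmrn1, Eng, Tgm2, Hacd4, AW112010, Cracd, Ces2g, Ifitm1, Nupr1, Fxyd5 and Gltp were lower and Flt3 higher. AW112010, Cracd and Fxyd5 are named after their values were seen, and a second probe set of Cracd disagreed in the control comparison, with -0.06 (unadjusted p = 0.796 by limma) beside -1.46. Mmrn1 read 8.58, 8.82 and 8.55 in Erg +/- HSCs and 3.97, 3.82 and 3.64 in Erg -/- MPPs, -4.84 log2 units beside -4.30 in controls. Eng stood at -3.84 beside -3.61, and Tgm2 at -3.39 beside -3.37. Flt3 read 5.45, 4.69 and 4.57 against 9.29, 9.65 and 9.04, a difference of 4.42 beside 2.57. Mmrn1, Eng, Tgm2 and Flt3 separated the populations in both sets of arrays. In the Erg-deficient contrast every held gene has an absolute t of at most 2.39 or of 15.6 or more. That these genes were called there too therefore partly reflects which rows are held.

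Of the 128 genes, 117 (91.4%) had the same sign in the Erg-deficient arrays, as did 74.9% of all 9984 genes. Their sizes are not compared, since the rows held end at an absolute t of 2.39 in that contrast apart from the 12 genes. Mcpt8 read 4.24, 4.24 and 4.54 in Erg +/- HSCs and 5.26, 4.92 and 4.70 in Erg -/- MPPs. Vpreb1 had the opposite sign there, with 6.77, 5.86 and 7.40 against 5.35, 5.41 and 5.32, and Serpinb1a stood at -0.46. Plk1 read 6.64, 5.63 and 4.40 against 6.28, 7.0 and 6.55, with overlap between the groups.

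**Figure D5:**
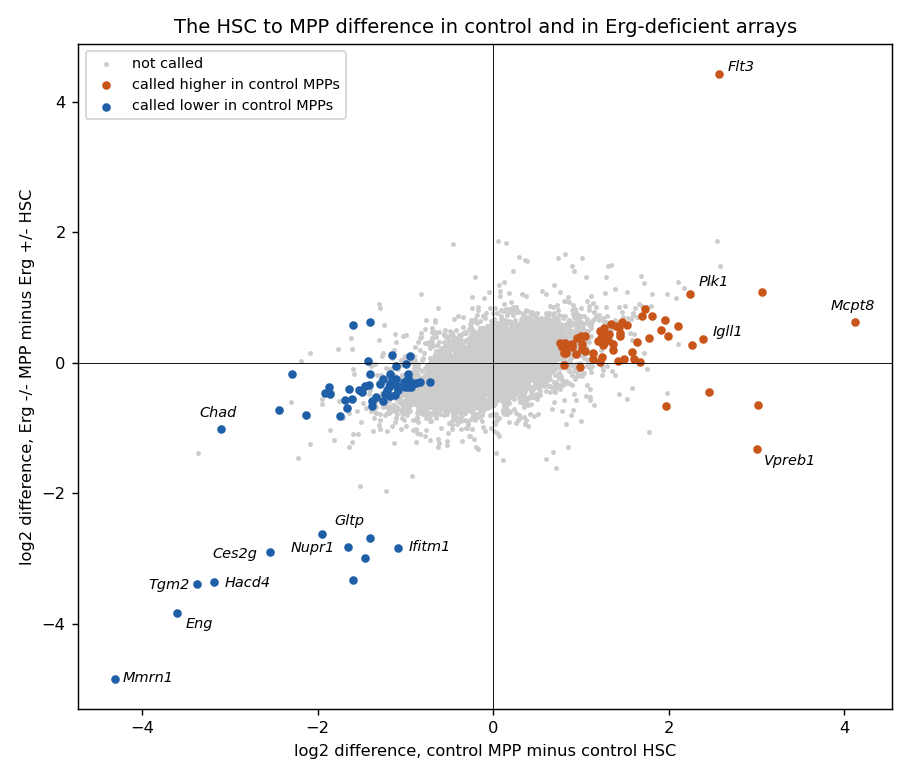
Log2 difference of each gene between MPPs and HSCs in control arrays (horizontal) and in Erg-deficient arrays (vertical), with the 128 genes called in controls coloured. The 12 genes called in both lie at the lower left and top right, and the vertical gap around the grey cloud is the missing range of test statistics.

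The difference between the 2 population differences was called for 2 genes, 0.02% of those tested, with adjusted p = 0.0157 each by limma. Igll1 was 2.39 log2 units higher in control MPPs and 0.36 in Erg-deficient MPPs, where it read 5.95, 5.48 and 5.60 in Erg +/- HSCs and 5.95, 6.05 and 6.11 in Erg -/- MPPs. The difference of differences was -2.03 (SE 0.244). Ifitm1 was 1.08 log2 units lower in control MPPs and 2.84 lower in Erg-deficient MPPs, with 12.30, 12.14 and 12.28 in Erg +/- HSCs and 9.31, 9.27 and 9.63 in Erg -/- MPPs. Its difference of differences was -1.75 (SE 0.219). Neither was called when any one of 7 of the 12 arrays was left out or with the replicate number as a block. Genes whose difference between the Erg-deficient populations lies in the missing range could not enter this comparison. Those that entered have an absolute t there of at most 2.39, as Igll1 has, or of 15.6 or more, as Ifitm1 has. The 2 calls and their sizes therefore also depend on which rows are held.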

How the data were processed

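Sorted mouse HSCs and MPPs were profiled on 12 arrays, 3 per group. Per the labels' protocols, 20 ng of total RNA was amplified and 2.5 µg of the cDNA was labelled with biotin. The authors deposited log2 values, made with RMA in the affy package (no version) per the submitters' processing notes. RMA corrects background, forces arrays to a common distribution and compresses the differences of dim genes. The value table has 18719 probe sets. The probe annotation names 10657 with 1 gene symbol and 523 with several, and 7539 are not listed in it. Each of 9984 genes is shown by its brightest probe set, that with the largest mean of the 12 arrays, and 364 of them have more than 1.

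A limma model (limma 3.58.1, R 4.3.3) with 4 group means was fitted to all 12 arrays, with 8 residual and 4.35 prior degrees of freedom and no filter on dim genes. Tests were two-sided, with p-values adjusted over all genes and a threshold of 0.05. SE is the moderated standard error. The value table holds no gene between 2.39 and 15.6 in absolute t for the Erg-deficient comparison, and such genes are not analysed here. Depth has no meaning for arrays, and 3 arrays per group limit the precision. Alternatives were other filters, probe set rules, scalings, moderation and weights, a replicate block, and each array left out. Leaving out the array of lowest weight in both control groups was chosen after seeing the data.

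The comparison and the 30 gene lists, with 780 of 1754 genes measured, were chosen with earlier results of these data known. Named genes are, leaving out sensory receptors, small RNAs, clones and predicted genes, the 15 largest called differences in each direction with non-overlapping groups, up to 4 called members per list or the 2 smallest p where none was called. Further list members, which show a list's range, were picked after their values were seen, as were the genes outside the lists where the text says so. Promoters were matched by gene ID to RefSeq for 7727 genes.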

Additional observations from a re-analysis of the deposited data

Results flagged for a closer look

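The control and the Erg-deficient population differences, MPPs minus HSCs, were compared by limma in the same model, and 2 genes differed between them with adjusted p = 0.0157 each. For Igll1, the surrogate light chain gene, the difference of differences was -2.03 log2 units. Control MPPs stood at 7.92 ± 0.138 and control HSCs at 5.53 ± 0.193, whereas Erg -/- MPPs stood at 6.04 ± 0.0800 and the Erg +/- HSCs at 5.68 ± 0.244 (SD, n = 3 each). For Ifitm1 it was -1.75 log2 units, with Erg -/- MPPs at 9.40 ± 0.198 and Erg +/- HSCs at 12.24 ± 0.0888 (SD, n = 3 each), and with control MPPs at 11.06 ± 0.0973 and control HSCs at 12.15 ± 0.109. The comparison cannot include genes whose Erg-deficient difference lies in the range of test statistics not held in the value table. For the genes that are held, its calls and sizes also depend on that gap.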

How the results depend on the processing

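Against 128 called genes (65 higher and 63 lower in control MPPs), all probe sets gave 60 (19 and 41), a common interquartile range 393 (264 and 129), the control arrays alone 61 (31 and 30) and the fit without the lowest-weight arrays 61 (34 and 27). Leaving out 1 control array gave 47 to 150 calls, 23 to 93 higher and 22 to 77 lower. Median centring moved the split to 46 higher and 91 lower. With HSC replicate 2 left out it was 50 and 77, and with MPP replicate 1 left out 93 and 57. The other settings gave 107 to 174 calls. Same-numbered samples did not deviate together in every pair (correlations of -0.085 to 0.104). The control HSC and control MPP pairs stood at 0.104, 0.031 and 0.037. Whether the number marks a shared batch cannot be told from these correlations. With a replicate block 139 genes were called, 106 of them among the 128, and the Erg-deficient difference kept 12. The difference between the 2 population differences had 2 calls, 0 with the replicate block, 4 with trend and robust moderation, 1 without the lowest-weight arrays and 0 to 3 without 1 array. The cause of these shifts was not tested. The Erg-deficient calls stayed at 12, or 13 with only the arrays compared, without control HSC replicate 1 and without the lowest-weight arrays, and were 18 over all probe sets. With no held gene between 2.39 and 15.6 in absolute t there, most settings could hardly move that count, so its steadiness shows little. The count of genes with the same direction stayed within 1.5 times 117. That bound is loose, since the count cannot exceed 128 and the bound reaches below the 74.9% share of all genes. Of 46 named called genes 14 were called in every setting, and 0 of 1172 gene and setting pairs reversed sign. The absence of reversals was largely set by how the genes were picked. All named genes but Ndufaf1 and Cyp51 have non-overlapping groups, so leaving out 1 array could not reverse their sign.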
